A study of Mus musculus with 6 samples.

Results

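The CC chemokines examined here were 9 genes, Ccl2, Ccl3, Ccl4, Ccl5, Ccl6, Ccl7, Ccl8, Ccl9 and Ccl12, taken by symbol from a table of 36870 distinct gene symbols. All 9 were listed once, and all 9 passed the filter for testing, a mean of at least 0.1 RPKM (reads per kilobase of transcript, scaled to the mapped reads of the library) over the 6 libraries, as did 13266 genes in all. The libraries came from bone marrow mesenchymal stem cells (BMMSCs) of C57BL/6 mice, grown from the adherent fraction of flushed femur and tibia marrow, without a sort, and labelled p2 for passage. In 3 control libraries the cells had received non-targeting siRNA, and in 3 siTet1/Tet2 libraries they had received siRNAs against Tet1 and Tet2, which encode enzymes that oxidise 5-methylcytosine in DNA. The study's methods name the control of this experiment a vehicle, and neither source gives the time from transfection to RNA extraction, the age of the mice or whether the 3 cultures of a group came from separate mice, so p-values measure the spread between these libraries.

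The 3 control libraries held Tet2 at 2.57, 4.08 and 3.71 RPKM, and the siRNA left 0.358, 0.238 and 0.202 RPKM. Tet1 was low, at 0.032, 0.098 and 0.05 RPKM in the controls. After siRNA it was at 0.001, 0.01 and 0.001 RPKM, under every control library. Its mean over the 6 libraries was under 0.1 RPKM, so it was not tested. The labelled cell type was checked against markers. A list of 18 macrophage markers summed to between 9161 and 12157 RPKM in the control libraries and between 17487 and 20562 RPKM in the siTet1/Tet2 libraries, whereas 15 marrow stromal markers summed to between 1131 and 1637 RPKM and to between 145 and 293 RPKM. Lyz2, a lysozyme of myeloid cells, was the most abundant macrophage marker. Its means were 4439 RPKM in the controls and 11321 RPKM in the siTet1/Tet2 libraries, much of the macrophage sums and of their rise. Col1a1 was the most abundant stromal marker, with means of 488 and 72.1 RPKM. The stromal markers Thy1, Lepr and Lum each had a mean under 0.1 RPKM. These cultures therefore carried far more macrophage than stromal marker RNA in both groups. Libraries of 1 group correlated across genes at r of 0.992 to 0.997, and libraries of different groups at 0.949 to 0.969, and no library stood apart from its group.

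Chemokines are small secreted proteins that draw leukocytes along a gradient by binding receptors of the G-protein-coupled class. In the CC family the first 2 cysteines of the mature protein stand side by side, and the ligands are commonly grouped by the receptors they engage and the cells they attract. Ccl2, Ccl7, Ccl8 and Ccl12 are monocyte chemoattractant proteins, Ccl3 and Ccl4 are the macrophage inflammatory proteins 1 alpha and 1 beta, Ccl5 is RANTES, and Ccl6 and Ccl9 are rodent chemokines made at high levels by myeloid cells. Macrophages and stromal cells of bone marrow both make chemokines of this family, and transcription is driven by NF-kappaB, AP-1 and interferon-responsive factors.

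The feature that names the family is shown in the coding sequence of 8 members, read in frame from the GENCODE M21 annotation of mouse genome build GRCm38, with the adjacent pair of cysteine codons in capitals and 4 codons on each side. Each of these coding sequences held 1 such pair.
Ccl2: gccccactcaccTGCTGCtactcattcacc
Ccl7: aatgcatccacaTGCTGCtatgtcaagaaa
Ccl12: accccagtcacgTGCTGTtataatgttgtt
Ccl8: gctccagtcaccTGCTGCtttcatgtacta
Ccl5: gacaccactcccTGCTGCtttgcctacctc
Ccl9: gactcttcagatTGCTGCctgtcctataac
Ccl6: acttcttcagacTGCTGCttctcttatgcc
Ccl4: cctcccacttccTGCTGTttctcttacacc
Ccl12 and Ccl4 used TGT for the second cysteine and the other 6 shown used TGC. The pair lay at codons 32 to 35 in 6 of them, and further in, at codons 50 and 51 in Ccl6 and at codons 57 and 58 in Ccl9. These same 2 genes resembled each other over the whole coding sequence (64.8% identity), as did Ccl3 and Ccl4 (67.0%) and Ccl8 and Ccl12 (64.8%). Ccl7 was nearly as close to Ccl12 (63.5%) and to Ccl8 (63.3%). Over aligned bases alone, gaps left out, Ccl2 and Ccl7 were 69.4% identical and Ccl6 and Ccl9 70.4%. The longest stretch shared exactly by transcripts of any pair of members was 25 bases, between Ccl6 and Ccl9. How the table counted reads that match several places is not given in the sources used here. No stretch of 50 bases was common to any pair of members, and the only member that shared one with another gene of any kind was Ccl9, in 1.97% of its stretches.

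All 9 CC chemokines were lower in the siTet1/Tet2 libraries. In each of them every siTet1/Tet2 library lay under every control library, a separation that 35.9% of the 13266 genes tested also had. The summed level of the 9 genes was 1831, 1717 and 1532 RPKM in the control libraries and 298, 364 and 309 RPKM in the siTet1/Tet2 libraries, a 5.23-fold lower mean. By limma on log2(RPKM + 1), two-sided and adjusted over all genes by the Benjamini-Hochberg method, 9 of 9 members passed an adjusted p of 0.05 as lower and 0 as higher, where 29.8% of genes were called lower and 14.7% higher. That background depended on scaling, with 19.8% lower and 27.2% higher after quantile normalization and 24.3% and 19.3% after median ratio scaling, and the count of 9 members did not change under either. With the study's own kind of threshold, an unadjusted p under 0.05 and a change over 2-fold, 9 of 9 were lower, against 5.63% of genes, and 0 were higher, against 0.95%. The median log2 difference was -3.06 over the members and -0.09 over all genes tested. In RNA from a whole culture, fewer cells of a type and less RNA per cell cannot be told apart.

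**Figure D1:**
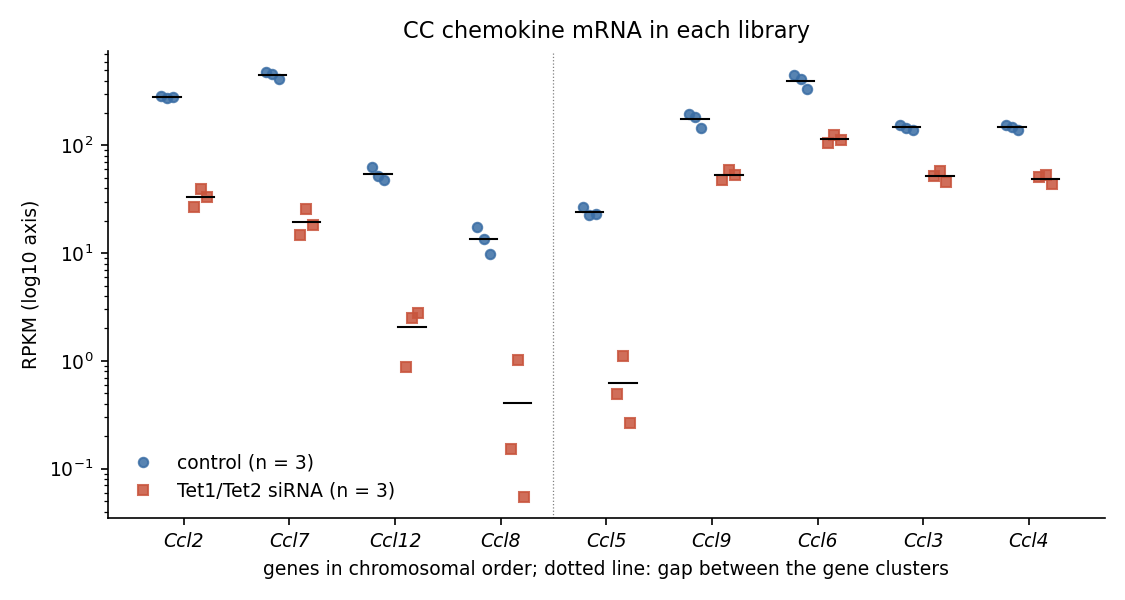
RPKM (log10 axis) of the 9 CC chemokines in the 3 control and 3 siTet1/Tet2 libraries, 1 point per library, with black bars for group means and genes in chromosomal order. In all 9 genes the siTet1/Tet2 points lie under the control points, with the widest gaps at Ccl7, Ccl12, Ccl8 and Ccl5.

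The members separated by size of change. Ccl2, Ccl7, Ccl12, Ccl8 and Ccl5 fell by more than 3 on the log2 scale, a group that held 41 of all genes tested (0.309%). A cut at 3 is not among the thresholds of the tests, and Ccl2 lay close to it. Ccl2 was at -2.98 with median ratio scaling and at -2.92 without siTet1/Tet2 replicate 1. Ccl9, Ccl6, Ccl3 and Ccl4 had log2 differences between -1.80 and -1.48. Genes were ordered by the difference on log2(RPKM + 1), from the most negative. Ccl7 ranked 4, Ccl12 ranked 11, Ccl5 ranked 12, Ccl8 ranked 26 and Ccl2 ranked 40. Ccl6 ranked 224, Ccl9 ranked 265, Ccl4 ranked 321 and Ccl3 ranked 367. The order of the largest falls depended on the pseudocount. On log2(RPKM + 0.01) it was Ccl8 (-5.91), Ccl5 (-5.48), Ccl12 (-4.88), Ccl7 (-4.56) and Ccl2 (-3.10). The exact two-sided permutation test over the 6 libraries gave p = 0.1 for each member, the smallest value that 3 against 3 libraries allow.

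**Figure D2:**
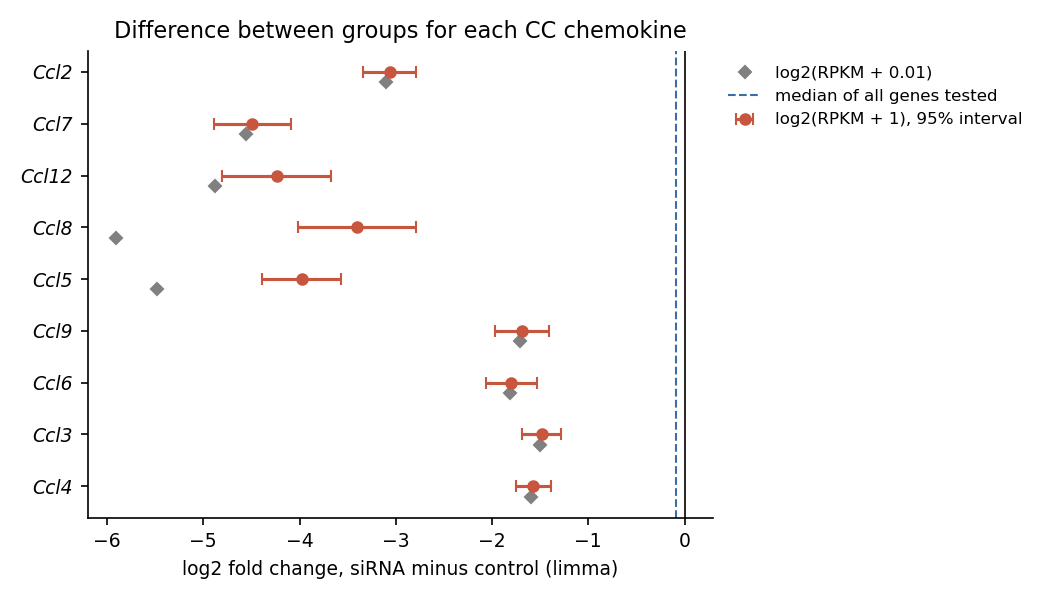
Log2 difference of the 9 CC chemokines, siTet1/Tet2 minus control, on log2(RPKM + 1) with 95% intervals (circles) and on log2(RPKM + 0.01) (grey diamonds). The dashed line marks the median of all genes tested, -0.09, and the intervals of the 9 members lie under it, with Ccl8 and Ccl5 lower still at the smaller pseudocount.

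Among the monocyte chemoattractants, Ccl7, a ligand of Ccr1, Ccr2 and Ccr3, was the most abundant member in the control libraries. It stood at 480, 462 and 410 RPKM in the controls and at 14.6, 25.7 and 18.4 RPKM after Tet1/Tet2 siRNA. The lowest control library thus held many times the level of the highest siTet1/Tet2 library. The means were 450 ± 36.5 and 19.6 ± 5.66 RPKM (SD, n = 3), a ratio of 23.0, and the log2 difference was -4.49 (SE 0.17, 95% interval -4.88 to -4.09, limma adjusted p = 1.16e-06).

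Ccl2, the main ligand of Ccr2 and the classical signal that brings monocytes out of marrow, was the steadiest member among controls. Its control values were 289, 277 and 280 RPKM, and its siTet1/Tet2 values were 27.0, 39.5 and 33.5 RPKM. The means of 282 ± 6.63 and 33.3 ± 6.26 RPKM (SD, n = 3) differed 8.47-fold, with a log2 difference of -3.06 (SE 0.12, 95% interval -3.34 to -2.78, limma adjusted p = 1.28e-06). Of the 5 members with the largest falls, Ccl2 kept the highest level after siRNA.

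Ccl12, a mouse ligand of Ccr2, was lower in RPKM than Ccl2 and Ccl7 in both groups. It was at 63.0, 51.8 and 48.1 RPKM in the controls and at 0.871, 2.50 and 2.79 RPKM in the siTet1/Tet2 libraries. The mean control level was 54.3 ± 7.77 RPKM and the mean siTet1/Tet2 level 2.05 ± 1.03 RPKM (SD, n = 3), 26.4-fold apart, and the log2 difference was -4.24 (SE 0.25, limma adjusted p = 9.38e-06). Unlike the other 8 members, its highest siTet1/Tet2 value was in replicate 3.

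Ccl8, which in mice is an agonist of Ccr8, was the least abundant member in both groups. Its control values spread most in proportion, at 17.4, 13.6 and 9.76 RPKM, and its siTet1/Tet2 values were 0.152, 1.01 and 0.055 RPKM. A depth estimated from the smallest steps of the values placed about 3, 20 and 1 reads behind these last 3 numbers and 333, 229 and 162 reads behind the control values, so counting error alone is large after siRNA. The ratio of the group means was 33.5, and without siTet1/Tet2 replicate 2 it was 131. On log2(RPKM + 1) the difference was -3.40 (SE 0.27, limma adjusted p = 3.87e-05), and on log2(RPKM + 0.01) it was -5.91, because a pseudocount of 1 exceeds most of its siTet1/Tet2 values.

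Ccl5, which attracts T cells, monocytes and eosinophils through Ccr1, Ccr3 and other receptors, showed the same sharp separation. It was at 26.6, 22.5 and 22.9 RPKM in the controls and at 0.488, 1.12 and 0.265 RPKM after siRNA, with about 12, 29 and 6 reads behind the latter. The ratio of the means, 24.0 ± 2.23 over 0.623 ± 0.441 RPKM (SD, n = 3), was 38.5, and it was 63.8 without siTet1/Tet2 replicate 2. That ratio was above the 33.5 of Ccl8 over all libraries and under its 131 without that replicate, so the order of the 2 genes rested on 1 library. The log2 difference was -3.98 (SE 0.18, limma adjusted p = 2.51e-06) with a pseudocount of 1 and -5.48 with 0.01. T cells and natural killer cells are well-known sources of Ccl5. Of the 10 markers of these cells 9 had a mean under 0.1 RPKM. Cd3g, Trac, Ncr1 and Gzma were at the lowest listed value in all 6 libraries. The remaining marker, Cd4, also made by macrophages, had means of 2.56 RPKM in the controls and 8.06 RPKM after siRNA. Which cells held the Ccl5 RNA was not tested.

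Ccl3 and Ccl4, attractants of monocytes and lymphocytes, had nearly equal levels in every library. Ccl3 was at 154, 147 and 140 RPKM in the controls and at 52.4, 57.8 and 45.9 RPKM after siRNA. Ccl4 was at 154, 149 and 140 RPKM and at 50.4, 53.0 and 43.9 RPKM. For both genes the 3 controls sat close together and well above the 3 siTet1/Tet2 libraries. The ratio of means was 2.82 for Ccl3 and 3.01 for Ccl4, with log2 differences of -1.48 (SE 0.09, limma adjusted p = 9.85e-06) and -1.57 (SE 0.08, limma adjusted p = 5.12e-06). The 2 genes are neighbours on opposite strands, and Ccl3/Ccl4 ratios were 0.985 to 1.00 in the control libraries and 1.04 to 1.09 in the siTet1/Tet2 libraries.

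Ccl6 and Ccl9, rodent ligands of Ccr1, also moved alike. Ccl6 stood at 453, 411 and 337 RPKM in the controls and at 105, 124 and 111 RPKM after siRNA, and was the most abundant member there. Ccl9 stood at 194, 184 and 145 RPKM and at 47.4, 59.4 and 52.9 RPKM. In both genes control replicate 3 was the lowest control and still far above every siTet1/Tet2 library. Ccl6 fell from a mean of 400 ± 58.7 to 114 ± 9.75 RPKM (SD, n = 3), 3.52-fold, and Ccl9 from 174 ± 26.1 to 53.2 ± 5.98 RPKM, 3.27-fold. The log2 differences were -1.80 (SE 0.11, limma adjusted p = 1.44e-05) and -1.69 (SE 0.12, limma adjusted p = 2.54e-05). Ccl6/Ccl9 was 2.23 to 2.34 in the controls and 2.09 to 2.22 in the siTet1/Tet2 libraries.

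Because RPKM is per transcript length, levels of different members can be set in order within a library. Among the controls the order was Ccl7, Ccl6, Ccl2, Ccl9, Ccl4, Ccl3, Ccl12, Ccl5 and Ccl8. The ranges of Ccl7 and Ccl6 overlapped, as did those of Ccl9, Ccl4 and Ccl3. After siRNA the order was Ccl6, Ccl9, Ccl3, Ccl4, Ccl2, Ccl7, Ccl12, Ccl5 and Ccl8, and the ranges of Ccl9, Ccl3 and Ccl4 overlapped, as did those of Ccl12, Ccl5 and Ccl8 between neighbours. Ccl7 and Ccl2, above Ccl9, Ccl4 and Ccl3 in the controls, both stood under these 3 genes after siRNA.

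The makeup of the summed CC chemokine RNA shifted with this order. Ccl2, Ccl7, Ccl12 and Ccl8 made up 47.3% ± 1.27 of the summed RPKM of the 9 genes in the controls and 16.9% ± 2.39 after siRNA (SD, n = 3). Ccl3, Ccl4, Ccl6 and Ccl9 made up 51.2% ± 1.33 and 82.9% ± 2.44. Ccl7 alone went from 26.6% ± 0.352 to 5.97% ± 1.09, and Ccl6 from 23.5% ± 1.41 to 35.1% ± 0.972. Ccl5 contributed 1.42% and 0.185%. As a share of all RPKM in a library, the 9 genes together held 0.406% ± 0.0172 in the controls and 0.0745% ± 0.00769 after siRNA.

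**Figure D3:**
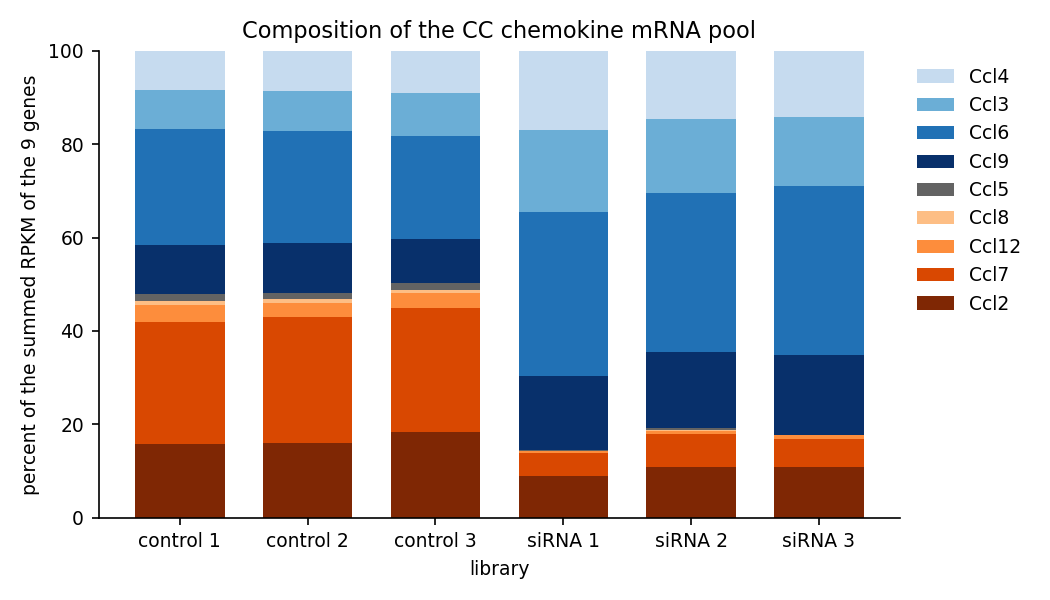
Share (percent) of each CC chemokine in the summed RPKM of the 9 genes, 1 stacked bar per library. The monocyte chemoattractants Ccl2, Ccl7, Ccl12 and Ccl8 hold a mean of 47.3% in the 3 control libraries and 16.9% in the 3 siTet1/Tet2 libraries, while Ccl6 holds 23.5% and 35.1%.

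A ratio of 2 members within a library does not change when all values of that library are multiplied by 1 factor. Quantile normalization is not a scaling of that kind, and the ratios here are of values as listed. Of the 36 pairs of members, 27 had ratios whose ranges in the control and siTet1/Tet2 libraries did not overlap. The pairs reuse the same 9 genes and are not independent. The share of other gene pairs with such a separation was not counted, so the number is descriptive only. The Ccl2/Ccl7 ratio was 0.599 to 0.683 in the controls and 1.53 to 1.85 after siRNA, so the level of Ccl7 was above that of its neighbour Ccl2 in every control library and under it in every siTet1/Tet2 library. Ccl6/Ccl7 went from between 0.822 and 0.943 to between 4.83 and 7.20. Ccl7/Ccl12 overlapped, at 7.62 to 8.92 and 6.59 to 16.8, as did Ccl5/Ccl12, at 0.422 to 0.476 and 0.0951 to 0.560. The exact two-sided permutation test could give no less than p = 0.1 for a pair, and 0.133 after adjustment over the 36 pairs, so no pair could pass 0.05.

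Within a group the members tended to be high or low in the same libraries. Control replicate 1 had the highest control value of all 9 members and control replicate 3 the lowest of 7. After siRNA, replicate 2 had the highest value of 8 members, and the lowest value was in replicate 1 for 5 members and in replicate 3 for 4. These are values as listed, and how many of all genes share this order was not counted. As a share of all RPKM in a library, the 9 genes together held 0.424%, 0.406% and 0.389% in control replicates 1, 2 and 3. In the siTet1/Tet2 libraries they held 0.0678%, 0.0829% and 0.0729%.

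All 9 genes lie on mouse chromosome 11 (GRCm38), in a pair of clusters 1409 kb apart. Ccl2 (chr11:82035571-82037453), Ccl7 (chr11:82045712-82047525), Ccl12 (chr11:82101845-82103400) and Ccl8 (chr11:82115185-82116799) are on the plus strand and span 81.2 kb. Ccl5 (chr11:83525778-83530518), Ccl9 (chr11:83572919-83578636), Ccl6 (chr11:83587882-83593087) and Ccl3 (chr11:83647844-83649355), on the minus strand, and Ccl4 (chr11:83662584-83664683), on the plus strand, span 139 kb. The 4 genes of the first cluster and Ccl5, at the near edge of the second, are the 5 with the largest falls. Ccl11, an eosinophil attractant, lies between Ccl7 and Ccl12 and was at most 0.053 RPKM in any library. No exon of a member overlapped an exon of another gene in the annotation.

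Sequence upstream of the start was given by RefSeq (GRCm38.p6) for 5 members, Ccl3, Ccl6, Ccl8, Ccl9 and Ccl12. The 250 bases before the start are shown for 3 of them, a member of the first cluster with a large fall and 2 of the second cluster with smaller falls, with each CG dinucleotide, the site of the 5-methylcytosine on which Tet enzymes act, in capitals.
Ccl12, plus strand, chr11:82101595-82101844: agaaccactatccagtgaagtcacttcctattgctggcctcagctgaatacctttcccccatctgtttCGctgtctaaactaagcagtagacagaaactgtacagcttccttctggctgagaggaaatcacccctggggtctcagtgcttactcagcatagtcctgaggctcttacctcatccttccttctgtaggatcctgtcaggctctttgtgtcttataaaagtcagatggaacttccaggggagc
Ccl9, minus strand, chr11:83578637-83578886: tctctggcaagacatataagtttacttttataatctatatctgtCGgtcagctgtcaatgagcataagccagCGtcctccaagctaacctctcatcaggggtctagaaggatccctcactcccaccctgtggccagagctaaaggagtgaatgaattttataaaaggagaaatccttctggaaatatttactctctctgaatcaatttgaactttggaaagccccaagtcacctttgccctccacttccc
Ccl3, minus strand, chr11:83649379-83649628: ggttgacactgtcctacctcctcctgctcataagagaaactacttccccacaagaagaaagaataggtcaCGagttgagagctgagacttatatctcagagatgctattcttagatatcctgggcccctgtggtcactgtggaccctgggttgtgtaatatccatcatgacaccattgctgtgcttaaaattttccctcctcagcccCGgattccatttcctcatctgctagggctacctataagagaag
These windows were poor in CG. Ccl3, Ccl6 and Ccl9 had 2 CG dinucleotides each and Ccl8 and Ccl12 had 1, where the median over 32851 promoter windows of the same length was 6 and 29.0% of windows had 2 or fewer. DNA methylation was not measured in these libraries. Motif cores were searched on both strands of the 5 windows, namely GAAA, any 2 bases and GAAA for interferon-stimulated response elements (in 2.98% of all windows), TTCNNNGAA for STAT sites (7.02%), GGG, any 3 bases and TTCC for NF-kappaB (4.65%) and TGANTCA for AP-1 (6.75%). The Ccl9 window held an NF-kappaB core, ggaaagcccc, 35 to 26 bases before the start, and an AP-1 core, tgaatca, 53 to 47 bases before it, and the other 4 windows held no match.

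The other CC chemokine genes were low or at the lowest listed value, with Ccl25 and Ccl27a the most abundant. Ccl27a had means of 1.17 RPKM in the controls and 1.28 RPKM after siRNA. Of 14 in the table, 7 were tested and 0 passed an adjusted p of 0.05 by limma in either direction, and 0 had an unadjusted p under 0.05. Ccl1, Ccl21a, Ccl21b and Ccl26 were at the lowest listed value in all 6 libraries. Ccl25, the ligand of Ccr9 and the most abundant of them, was at 3.84, 3.05 and 3.13 RPKM in the controls and at 2.89, 3.68 and 3.35 RPKM after siRNA, with overlapping groups (log2 difference -0.01, limma adjusted p = 0.952). The median log2 difference of these 7 genes was -0.02.

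Of 15 receptors and scavenging receptors of CC chemokines, 8 were tested, of which 5 fell and 1 rose. The shares over all genes tested were 29.8% lower and 14.7% higher. Ccr3, a receptor of Ccl5 and Ccl7, fell from 4.54 ± 0.242 to 2.20 ± 0.256 RPKM (SD, n = 3, log2 difference -0.80, limma adjusted p = 0.000266). Ccr2, the receptor of Ccl2, Ccl7 and Ccl12, was low in both groups, at 0.541, 0.602 and 0.525 RPKM and at 0.332, 0.287 and 0.304 RPKM (log2 difference -0.25, limma adjusted p = 0.0111), and with quantile normalization it no longer passed (-0.08, adjusted p = 0.356). Ccr1, the receptor of Ccl3, Ccl5, Ccl6, Ccl7 and Ccl9, was at 15.9, 17.5 and 14.2 RPKM in the controls and at 12.7, 14.0 and 13.2 RPKM after siRNA. Its groups did not overlap, but the difference missed the threshold (log2 difference -0.24, 95% interval -0.44 to -0.04, limma adjusted p = 0.0557), and the call depended on the setting. It passed with the replicate number as a block (adjusted p = 0.0279), rescaled to the same sum (-0.31, 0.0191), centred on macrophage markers (-0.40, 0.00505) and without control replicate 3 (-0.31, 0.0115), and was at -0.09 (0.408) with quantile normalization. Ccrl2, an atypical receptor that binds chemerin without signalling, rose from 2.40 ± 0.389 to 4.39 ± 0.604 RPKM (SD, n = 3, log2 difference 0.66, limma adjusted p = 0.0027).

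Of 18 transcription factors known to act on chemokine genes, 6 fell, 3 rose and 9 did not pass the test, shares near the 29.8% lower and 14.7% higher of all genes tested. Irf1, Irf5, Irf7, Irf9 and Stat2 were among those that fell, while Irf3 (log2 difference 0.09, limma adjusted p = 0.512) and Irf8 (0.09, adjusted p = 0.239), of the same gene family as the first 4, did not pass. Of these 7 genes Irf1, Irf3, Irf5, Irf8 and Irf9 were named after their values were seen. Irf7, which drives type I interferon genes, was at 296, 278 and 241 RPKM in the controls and at 4.29, 12.3 and 6.85 RPKM after siRNA, a fall of 34.8-fold, close in size to the largest falls among the chemokines (log2 difference -5.05, SE 0.28, limma adjusted p = 7.20e-06). Stat2 went from 83.5 ± 5.39 to 18.3 ± 1.08 RPKM (SD, n = 3, log2 difference -2.13, limma adjusted p = 6.67e-07). The NF-kappaB subunits Nfkb1 and Rela did not pass the test. Nfkb1 was at 24.5, 26.8 and 27.4 RPKM and at 23.4, 25.0 and 25.3 RPKM, with overlapping groups (log2 difference -0.09, 95% interval -0.25 to 0.07, limma adjusted p = 0.314). Rela was at 35.9, 36.6 and 35.1 RPKM and at 35.0, 39.4 and 38.7 RPKM (log2 difference 0.07, 95% interval -0.08 to 0.22, limma adjusted p = 0.414), and with quantile normalization its difference was 0.18 (adjusted p = 0.0361). Cebpa, a myeloid differentiation factor, rose from 110 ± 4.33 to 257 ± 10.5 RPKM (SD, n = 3, log2 difference 1.21, limma adjusted p = 5.46e-06). Fos, an AP-1 subunit, rose by 0.27 (limma adjusted p = 0.00659), but by 0.14 (adjusted p = 0.110) when libraries were centred on macrophage markers. Spi1, the myeloid factor PU.1 and the most abundant of the list, had overlapping groups (log2 difference 0.10, limma adjusted p = 0.275).

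**Figure D4:**
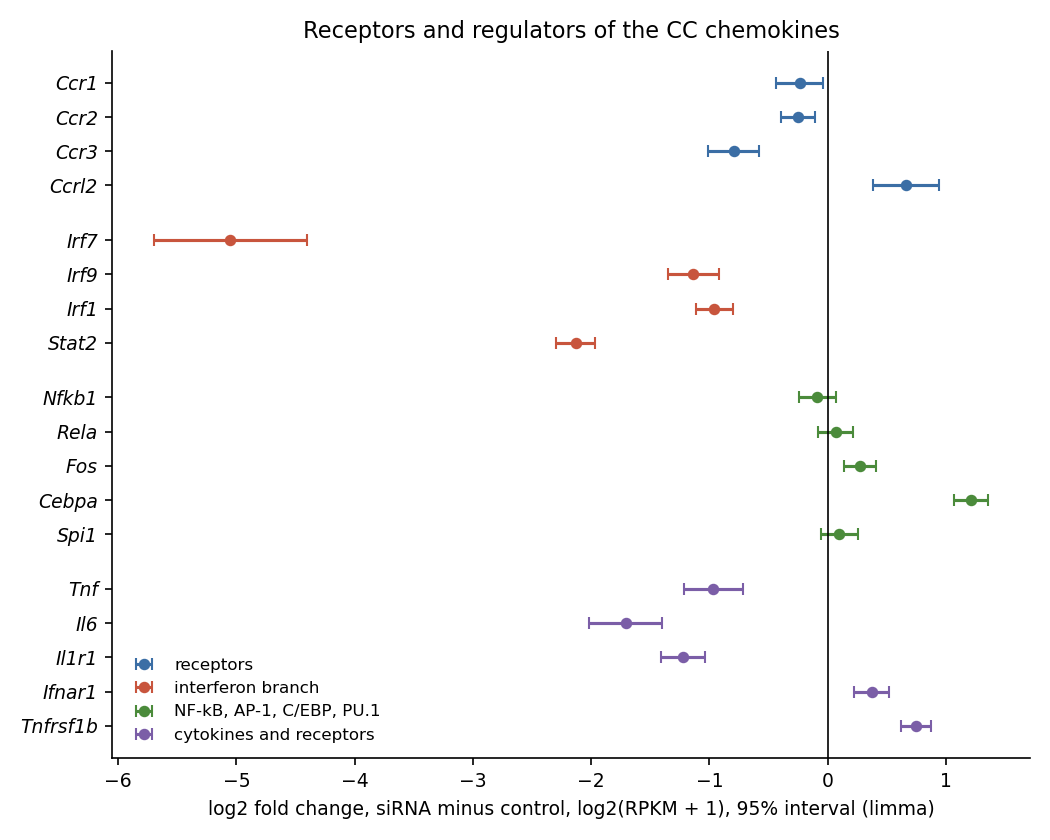
Log2 difference on log2(RPKM + 1), siTet1/Tet2 minus control, with 95% intervals, for receptors, interferon-response factors, other transcription factors, and inducing cytokines and their receptors. Irf7 lies furthest down at -5.05, Stat2 lies at -2.13, and the intervals of Nfkb1, Rela and Spi1 hold 0. Irf9, Irf1 and Tnf were added to the plot after their values were seen. Not every interferon-response factor is plotted. Irf3 (0.09) and Irf8 (0.09), which did not pass the test, and Irf5 (-0.46), which fell, are left off.

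Among 20 cytokines and receptors that induce chemokines, 17 were tested, of which 7 fell and 3 rose. Of all genes tested, 29.8% were called lower and 14.7% higher. Il1r1, the signalling receptor for interleukin-1, was at 1.72, 1.43 and 1.73 RPKM in the controls and at 0.064, 0.106 and 0.197 RPKM after siRNA (13.3-fold, log2 difference -1.23, limma adjusted p = 1.74e-05). Il6, a cytokine induced by the same signals as Ccl2, was at 2.99, 2.76 and 2.63 RPKM and at 0.072, 0.451 and 0.001 RPKM (log2 difference -1.71, limma adjusted p = 4.04e-05). The ratio of its means was 16 over all libraries, 76.6 without siTet1/Tet2 replicate 2, and replicate 3 was at the lowest listed value. Tnf, named after its values were seen, fell from 8.31 ± 0.416 to 3.78 ± 0.627 RPKM (SD, n = 3, log2 difference -0.97, limma adjusted p = 0.000213). Tnfrsf1b, a receptor for Tnf, rose from 62.3 ± 1.10 to 105 ± 4.02 RPKM (log2 difference 0.75, limma adjusted p = 3.04e-05), and Ifnar1, a chain of the type I interferon receptor, rose from 21.8 ± 0.783 to 28.5 ± 1.37 RPKM (log2 difference 0.37, limma adjusted p = 0.00199). Ifnar2, the other chain and the most abundant gene of the list, had overlapping groups (log2 difference 0.02, limma adjusted p = 0.890). Il1b, Ifnb1 and Ifng were not tested, since their means over the 6 libraries were under 0.1 RPKM. Ifnb1 was at 0.001, 0.078 and 0.320 RPKM in the controls and at 0.034, 0.001 and 0.001 RPKM after siRNA, with overlapping groups.

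Of 12 feedback inhibitors and factors that destroy chemokine and cytokine mRNAs, 5 fell, 1 rose and 6 did not pass the test. Over all genes tested, 29.8% fell and 14.7% rose by the same test. Socs1, an inhibitor of interferon signalling, fell from 2.51 ± 0.259 to 0.915 ± 0.110 RPKM (SD, n = 3, log2 difference -0.87, limma adjusted p = 0.000132), and Socs3, an inhibitor of Il6 signalling, from 4.94 ± 0.367 to 2.40 ± 0.286 RPKM (log2 difference -0.81, limma adjusted p = 0.000322). Nfkbie, an inhibitor of NF-kappaB, rose by 0.28 on the log2 scale (limma adjusted p = 0.0360), but the call was not stable. It was lost when libraries were centred on macrophage markers (0.22, adjusted p = 0.221) or rescaled to the same sum (0.27, 0.109), with no filter (0.28, 0.0831) and when any library except control replicate 2 was left out, where the difference was 0.24 to 0.33 and the highest adjusted p 0.0957. Nfkbia, the NF-kappaB inhibitor with the highest level, was at 45.8, 41.4 and 39.5 RPKM and at 44.8, 47.5 and 45.9 RPKM (log2 difference 0.13, limma adjusted p = 0.172), and with quantile normalization its difference was 0.23 (adjusted p = 0.0127).

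Marker lists of cell types also differed between the groups, stromal markers mostly downward and macrophage markers more often upward. Of the 15 stromal markers 12 were tested, and 10 fell and 0 rose, with a median log2 difference of -2.40. Of 18 macrophage markers 3 fell and 9 rose, with a median log2 difference of 0.20. Among all genes tested, 29.8% were called lower and 14.7% higher. When each library was centred on its macrophage markers, all 9 chemokines still passed as lower, with log2 differences, on a pseudocount of 0.01, from -1.65 for Ccl3 to -6.05 for Ccl8. When each was centred instead on its stromal markers, a scaling added after the data were seen, Ccl7 (-2.18), Ccl12 (-2.50), Ccl5 (-3.10) and Ccl8 (-3.53) still passed as lower, Ccl2 was at -0.72 (limma adjusted p = 0.0620), and Ccl3 (0.88), Ccl4 (0.79), Ccl9 (0.67) and Ccl6 (0.57) lay above 0. The 4 genes of that last group thus fell by less than the median stromal marker and the first 4 by more. On that scale 0.987% of all genes passed as lower and 92% as higher. Osteoclast markers summed to between 78.8 and 84.3 RPKM in the controls and to between 167 and 185 RPKM after siRNA. Of the 5 tested, 3 were higher and 0 lower. Most of both sums was Atp6v0d2, with means of 57.6 and 139 RPKM. Ocstamp had means of 0.178 and 0.0597 RPKM, and Dcstamp and Calcr were too low to be tested. The part of these shifts in the chemokine result was not tested.

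Other blood and vessel cells were represented by little RNA. Neutrophil markers, with S100a9 and Retnlg at the lowest listed value in all libraries, summed to between 3.40 and 3.54 RPKM in the controls and to between 9.27 and 16.2 RPKM after siRNA. The 2 that were tested went opposite ways. S100a8 rose from a mean of 1.95 to 12.7 RPKM (limma adjusted p = 4.13e-05), and Camp fell from 1.45 to 0.058 RPKM (limma adjusted p = 5.52e-05). T and natural killer cell markers summed to between 2.42 and 2.75 and to between 7.62 and 8.74 RPKM, of which Cd4, also made by macrophages, was the only gene tested. Dendritic cell markers summed to between 7.31 and 9.03 RPKM and to between 9.49 and 10.5 RPKM, mostly Itgax. Mast cell and basophil markers summed to between 3.87 and 4.77 and to between 1.52 and 2.11 RPKM, mostly Mcpt8, with Ms4a2 at the lowest listed value throughout. Endothelial markers, led by Kdr, summed to between 2.42 and 2.88 and to between 1.35 and 1.46 RPKM, B cell markers, led by Cd79b, to between 0.390 and 0.962 and to between 0.953 and 1.33 RPKM, and erythroid markers to at most 0.178 RPKM. Their part in the chemokine result was not tested.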

How the data were processed

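Six-library RNA-seq of BMMSCs was examined as 1 table of RPKM values, which the authors made by trimming adaptors, mapping reads to GRCm38 and estimating abundance with DNASTAR Lasergene, and deposited on a linear scale with 0.001 as the lowest value. Which annotation was used, whether strand was, and how multiply matching reads were counted are not given in the sources used here. The deposited p-values of the authors' own comparison were not used. Every value column was used.

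For 37 symbols listed more than once, none of them a member, only the row of highest mean was used. RPKM values of genes with a mean of at least 0.1 were compared as log2(RPKM + 1), a scale that understates the change of low genes, with limma 3.58.1 in R 4.3.3 (lmFit, eBayes with trend), two-sided, with Benjamini-Hochberg adjustment over all 13266 genes. The fit was tested on simulated data. Exact permutation tests and ratios used Python 3.11.15 with scipy 1.17.1. The members, the gene lists and the tests were chosen with earlier results of these data known. Described were all members, the receptors Ccr1, Ccr2 and Ccr3, Irf7, Nfkb1 and Rela, and from each list the 2 most significant genes in each direction and the most abundant. A few genes and 1 sequence that this rule covers are not reported here. The macrophage, stromal and other marker lists were summed over the members listed, with Adgre1 found under its older symbol Emr1.

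The table holds no depths. The smallest steps of its values gave about 32400000 to 38500000 reads per library, with 53.3% to 59.0% of low values within 0.1 of a whole read at the depth chosen for that match (20% by chance at a fixed depth), so whole reads were not recovered and read numbers are approximate. Deviations from the group means correlated between libraries of the same replicate number at 0.149, 0.117 and 0.462, but control 1 correlated better with siTet1/Tet2 2 (0.332) and control 2 with siTet1/Tet2 1 (0.205). The labels do not say that a number marks a shared culture or day, so the pairing is uncertain, and the replicate block served only as an alternative. The alternatives were other pseudocounts, filters, scalings, variance models, summed rows of 1 symbol, a replicate block and each library left out.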

Additional observations from a re-analysis of the deposited data

How the results depend on the processing

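All 9 chemokines remained lower, with a limma adjusted p under 0.05 and a change over 2-fold, under every planned pseudocount, filter, scaling and variance model, with each library left out and with the replicate block, which gave 9 lower and changed no call of a member. Over these settings the log2 difference ranged from -3.24 to -2.92 for Ccl2 and from -1.65 to -1.40 for Ccl3, and most widely from -6.05 to -3.22 for Ccl8 (highest adjusted p = 0.00966), where a smaller pseudocount gave the larger fall. The added centring on stromal markers left 4 members lower and 2 higher, with Ccl2 at -0.72 and Ccl3, Ccl4, Ccl6 and Ccl9 turned to 0.88, 0.79, 0.57 and 0.67. Among the lists, 14 transcription factors passed with quantile normalization (6 lower, 8 higher) in place of 9. For receptors 3 passed with a minimum of 1 RPKM, and for feedback inhibitors 3 passed with no filter. For the other CC chemokines 1 passed with quantile normalization (Ccl27a, higher), and 0 to 1 with a library left out, the 1 being Ccl20 without control replicate 3. The block, whose pairing is uncertain, also brought Ccr1 past the threshold (-0.24, adjusted p = 0.0279) and changed no other call of a gene named in the text. Among genes that did not pass, the sign turned for Ccl25 (0.054 with median ratio scaling, 0.18 with quantile normalization, -0.072 to 0.071 with a library left out), Ifnar2 (-0.13 centred on macrophage markers, -0.048 rescaled to the same sum, -0.048 to 0.072 with a library left out), Nfkb1 (0.016 with quantile normalization), and, centred on macrophage markers, Nfkbia (-0.015), Rela (-0.073), Spi1 (-0.046) and Tet3 (-0.0034). The causes of these changes were not tested. Counting error limits Ccl8 and Ccl5 after siRNA, with about 1 to 29 reads a library.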
